A study of Mus musculus with 39 samples.

Results

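Dendritic cells (DC) sorted from mouse lymph nodes 12 h after immunization with nanoparticles that held ovalbumin (OVA) and CpG were compared with DC from mice that had not been immunized. The comparison rests on 4 RNA-seq libraries of the 39 in the series, chosen by their labels: 2 of DC taken 12 h after OVA-CpG particles and 2 of non-immunized DC. All 4 came from wild-type C57BL/6 mice of 8 to 12 weeks, from the popliteal and inguinal nodes, and the particles were injected under the skin of the hock. The non-immunized mice had no treatment. The series description says that mice received OT-I and OT-II T cells specific for OVA and that particles also held the dye rhodamine 6G, with the aim of recording the early DC response to T cells. The labels of these 4 libraries do not say whether their mice carried OT cells. Unwanted cells were depleted before the stained DC were sorted, by a gate not given in the sources used here. Nothing in the labels tells separate from pooled animals among the replicates, so p-values measure only the spread between libraries, which may be technical. The other 6 libraries of the same time course (CpG-only particles at 12 h and 24 h and OVA-CpG particles at 24 h) entered the fit to estimate that spread, and the CpG-only 12 h and OVA-CpG 24 h groups were also set against the OVA-CpG 12 h group directly. A separate experiment held 5 libraries of DC taken 20 h after OVA-CpG particles and 5 of non-immunized DC, from mice of the same strain and ages.

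DC carry antigen to the lymph node and show it to T cells on MHC molecules, together with costimulatory ligands and cytokines. CpG is DNA with unmethylated CG dinucleotides that engages the endosomal receptor Tlr9, which signals through MyD88 to NF-kB and to interferon regulatory factors. Type I interferon made in response acts through a complex that holds STAT2 and IRF9 on genes with an interferon-stimulated response element, and interferon gamma, made mainly by T cells and NK cells, acts on a partly shared set of genes.

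After 12 h of OVA-CpG particles the DC libraries held many times more mRNA of interferon-stimulated genes. The same held for the inflammatory chemokines Cxcl10, Cxcl11, Ccl2 and Ccl12, and for Il1b as well as antagonists of IL-1 and IL-18. Genes of class I antigen presentation rose too, and no tested class II alpha or beta chain gene passed the test. The homing receptor Ccr7 did not pass either, and genes of T cells were lower. Of 9428 genes tested, 1282 (13.6%) were called at an adjusted p under 0.05, 901 of them higher (9.56%) and 381 lower (4.04%) in OVA-CpG DC. With 1 library left out the count was 622 (non-immunized replicate 1), 529 (non-immunized replicate 2), 584 (OVA-CpG replicate 1) and 831 (OVA-CpG replicate 2). The shares of all genes are the background for every count of a gene group below. Levels are given as counts per 1e+06 (CPM) of each library's total after TMM scaling, which evens out differences in composition, and fold changes are OVA-CpG over non-immunized on the log2 scale with their standard error (SE). The median log2 fold change of all tested genes was -0.03.

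**Figure D1:**
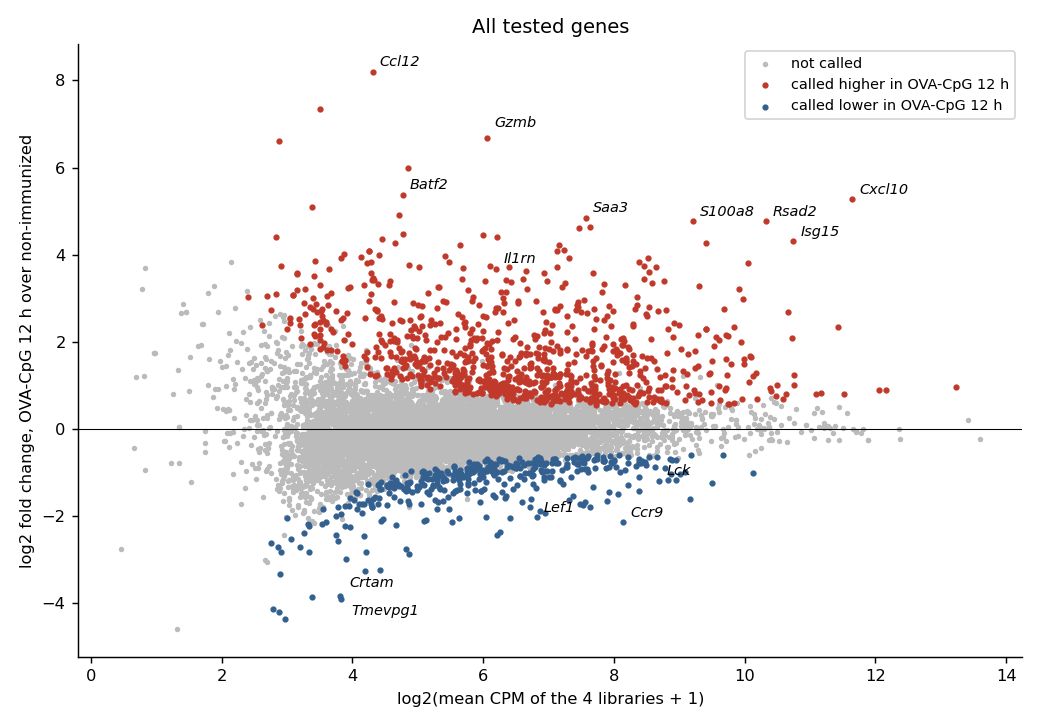
Log2 fold change of each of the 9428 tested genes, OVA-CpG 12 h over non-immunized, against its mean level in the 4 libraries as log2(CPM + 1). Red points are the 901 genes called higher in OVA-CpG DC and blue points the 381 called lower.

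The 4 libraries held 1228576 and 733829 counts (OVA-CpG) and 1226295 and 1113872 counts (non-immunized); the replicates of each group differed beyond counting noise, with a chi-square per degree of freedom of 2.79 (OVA-CpG) and 2.24 (non-immunized). The DC label was set against 10 marker genes of DC, which summed to 4632 and 4819 CPM in OVA-CpG DC and to 3814 and 2572 CPM in non-immunized DC. Of the 9 tested, 2 were called higher (Kmo and Irf8) and none lower (median 0.55), and the count was 1 without either non-immunized library or OVA-CpG replicate 1. Much of each sum came from H2-Ab1 and Cd74, 2 of the 10, whose levels are given with the class II pathway below. The cells that made these were not tested, so the sum is no measure of DC content. The DC integrin Itgax stood at 27.9 and 14.3 CPM in OVA-CpG DC, against 41.6 and 28.4 CPM in non-immunized DC, and the DC growth factor receptor Flt3 at 25.3 and 22.8 CPM against 23.3 and 15.8 CPM. Genes of T cells were read in every library: Cd3d stood at 449 and 335 CPM in OVA-CpG DC and at 658 and 581 CPM in non-immunized DC. The 20 measured T cell markers summed to 7172 and 7285 CPM in non-immunized DC, more than the 10 DC markers did. In OVA-CpG DC they summed to 4388 and 4313 CPM, less than the DC markers. The name DC is thus that of the labels, and the share of T cells in these libraries was not tested. Siglech, which marks plasmacytoid DC, had 0 counts in all 4. In bulk libraries fewer cells of a type and less RNA per cell cannot be told apart, which touches each result on markers below.

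Among the sensors of nucleic acids, 11 of the 13 tested genes (14 listed) rose and none fell, with a median log2 fold change of 1.83 beside -0.03 over all genes. Ifih1, a cytosolic sensor of double-stranded RNA, had 355 and 304 CPM in OVA-CpG DC, against 40.8 and 44.1 CPM in non-immunized DC (log2 fold change 2.95 ± 0.22 SE, adjusted p = 2.52e-07). Zbp1, a sensor of Z-form nucleic acid, had 837 and 580 CPM against 122 and 93.0 CPM (2.72 ± 0.23, adjusted p = 6.91e-07). In both genes each OVA-CpG library lay far above both non-immunized ones. Ifi204, a member of a mouse gene cluster of near-identical DNA sensors whose reads may be split uncertainly, had 669 and 723 CPM against 82.4 and 52.8 CPM (3.35 ± 0.25, adjusted p = 3.28e-07). Tlr9, the receptor of CpG, was read in 0 to 3 counts a library (2.53 and 0 CPM in OVA-CpG DC, 1.46 and 0.788 CPM in non-immunized DC) and was not tested, so a change in it was not detectable at this depth.

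The factors that carry the interferon signal rose in 9 of 14 cases and fell in none (median 1.05). The count of 9 was 7 by DESeq2. Irf7, the interferon regulatory factor that amplifies type I interferon, had 1893 and 1679 CPM in OVA-CpG DC, against 279 and 174 CPM in non-immunized DC (2.98 ± 0.23, adjusted p = 3.58e-07). Stat2, the partner of IRF9, had 584 and 659 CPM against 120 and 83.6 CPM (2.60 ± 0.27, adjusted p = 5.07e-06). The groups did not overlap in either gene. Irf3, a factor activated without new synthesis, had 135 and 143 CPM against 180 and 166 CPM and was not called (-0.32 ± 0.18, adjusted p = 0.273). Feedback inhibitors of the SOCS family rose in 3 of 5 cases. Socs1, which blocks JAK kinases, had 532 and 518 CPM in OVA-CpG DC, against 106 and 89.9 CPM in non-immunized DC (2.41 ± 0.20, adjusted p = 5.02e-07), and Socs3, an inhibitor of IL-6 signals, had 237 and 212 CPM against 67.8 and 59.1 CPM (1.82 ± 0.24, adjusted p = 5.39e-05).

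The interferons themselves were at the edge of detection. Ifnb1 and Ifna4 had 0 counts in all 4 libraries. Ifng had 5 counts over the OVA-CpG libraries and 0 over the non-immunized ones and was not tested. Of the 8 tested interferon, receptor and kinase genes (11 listed), 1 was called higher and 2 lower (median -0.20). Jak2, a kinase of the interferon gamma receptor, had 291 and 211 CPM in OVA-CpG DC and 136 and 140 CPM in non-immunized DC (0.87 ± 0.26, adjusted p = 0.0373). The receptor chain Ifngr1 was lower, at 135 and 158 CPM against 257 and 281 CPM (-0.88 ± 0.19, adjusted p = 0.004), and so was the kinase Jak1, at 607 and 684 CPM against 973 and 974 CPM (-0.60 ± 0.17, adjusted p = 0.0238). These 3 calls were lost with 1 library left out: without non-immunized replicate 2 the adjusted p was 0.184 for Jak2, 0.0593 for Ifngr1 and 0.137 for Jak1, and without OVA-CpG replicate 1 it was 0.325, 0.0915 and 0.224 in that order. Without non-immunized replicate 1 it was 0.181 for Jak2 and 0.124 for Jak1, and without OVA-CpG replicate 2 it was 0.0726 for Jak1.

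All 25 antiviral effector genes listed were tested and all 25 rose, with a median log2 fold change of 3.32, and all 25 were also called with any 1 of the 4 libraries left out. Isg15, a ubiquitin-like protein that is joined to other proteins, is not among these 25. It had 3594 and 2933 CPM in OVA-CpG DC, against 214 and 114 CPM in non-immunized DC (4.31 ± 0.28, adjusted p = 1.14e-07). Rsad2, which makes a chain-terminating nucleotide, had 2611 and 2331 CPM against 117 and 62.3 CPM (4.77 ± 0.29, adjusted p = 5.19e-08). Cmpk2, the mitochondrial nucleotide kinase encoded next to it, had 749 and 627 CPM against 48.9 and 41.0 CPM (3.93 ± 0.22, adjusted p = 2.96e-08). Both OVA-CpG libraries lay far above both non-immunized ones in each of these. Mx1, a GTPase that restrains influenza virus, had 793 and 575 CPM against 65.6 and 45.7 CPM (3.61 ± 0.24, adjusted p = 1.14e-07). Ifit1, which binds foreign RNA ends, had 1912 and 2062 CPM against 188 and 93.0 CPM (3.81 ± 0.29, adjusted p = 3.35e-07). Bst2, the tether that holds budding virions and that also marks plasmacytoid DC, had 1969 and 1508 CPM against 231 and 145 CPM (3.21 ± 0.26, adjusted p = 3.68e-07). Isg15 and the enzymes that attach it to proteins or remove it form a list of their own, which rose in 5 of 5 cases, Isg15 included (median 3.45). Among them the ligase Herc6 had 478 and 372 CPM in OVA-CpG DC, against 75.9 and 43.4 CPM in non-immunized DC (2.83 ± 0.25, adjusted p = 1.01e-06), and the protease Usp18, also a brake on the type I receptor, had 787 and 495 CPM against 83.2 and 33.1 CPM (3.45 ± 0.32, adjusted p = 1.63e-06). All 6 interferon-responsive PARP genes rose (median 1.81), led by Parp14, an ADP-ribosyltransferase, at 859 and 858 CPM against 178 and 150 CPM (2.38 ± 0.19, adjusted p = 3.61e-07).

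**Figure D2:**
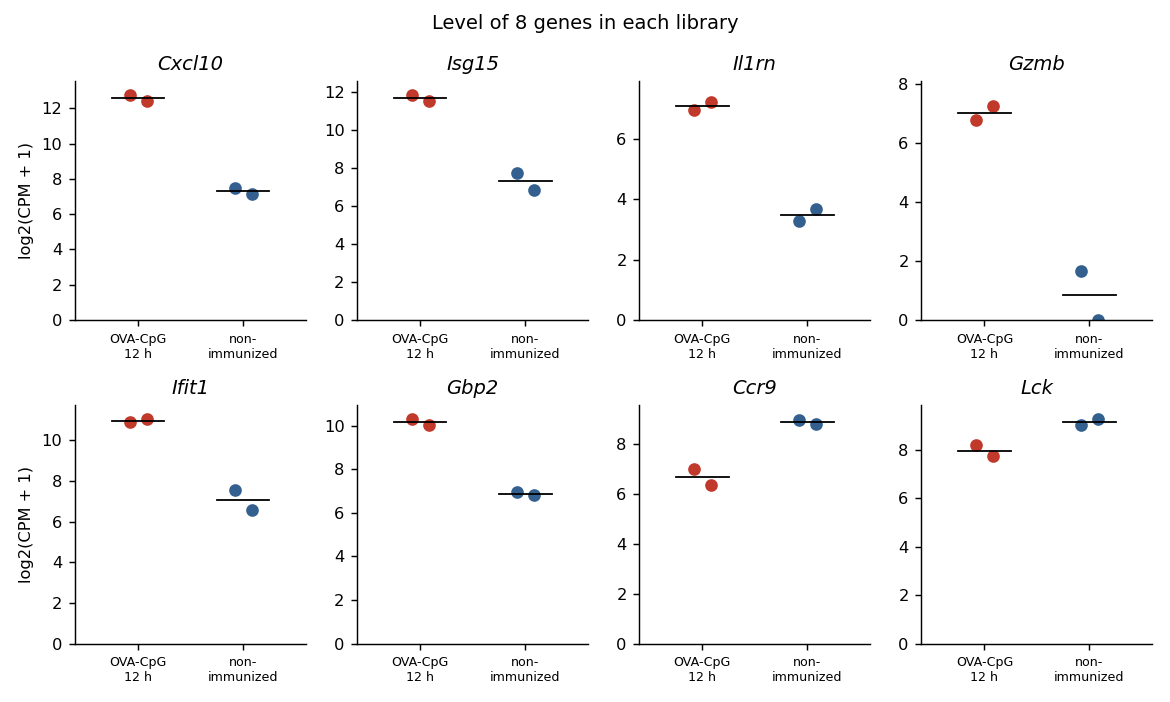
Level of 8 genes in each library as log2(CPM + 1), OVA-CpG 12 h (red) left of non-immunized (blue). Points are libraries and lines group means; the OVA-CpG libraries of Cxcl10, Isg15, Il1rn, Gzmb, Ifit1 and Gbp2 lie above, and those of Ccr9 and Lck below, both non-immunized libraries.

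The sequences of 4 promoters of genes that rose are shown. They were taken only from promoters that hold the core of the interferon-stimulated response element. The match was thus a condition of being shown and is no result about these 4 genes. The core is GAAA, any 2 bases and GAAA again, searched on both strands. Each run holds 300 bases of the RefSeq annotation of GRCm38.p6, 250 before and 50 after the annotated start, written in the direction of transcription, with matches to the core in capitals. The authors' counts were made on the mm9 build, so genes were matched by symbol and not by position. Isg15 lies on the minus strand at chr4:156200769-156201068, with 3 overlapping matches that begin 78, 72 and 66 bases before the start. Cxcl10 is also on the minus strand, at chr5:92348840-92349139, with 1 match 213 bases before the start. Ifit1 lies on the plus strand at chr19:34640639-34640938, with matches 104 and 85 bases before the start, and Gbp2 on the plus strand at chr3:142620413-142620712, with 1 match 59 bases before it.
Isg15: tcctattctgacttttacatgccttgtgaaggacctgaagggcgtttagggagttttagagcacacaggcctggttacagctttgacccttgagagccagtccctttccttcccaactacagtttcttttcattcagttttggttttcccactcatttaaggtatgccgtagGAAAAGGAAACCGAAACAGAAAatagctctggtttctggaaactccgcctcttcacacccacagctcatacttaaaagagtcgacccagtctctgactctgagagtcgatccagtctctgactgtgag
Cxcl10: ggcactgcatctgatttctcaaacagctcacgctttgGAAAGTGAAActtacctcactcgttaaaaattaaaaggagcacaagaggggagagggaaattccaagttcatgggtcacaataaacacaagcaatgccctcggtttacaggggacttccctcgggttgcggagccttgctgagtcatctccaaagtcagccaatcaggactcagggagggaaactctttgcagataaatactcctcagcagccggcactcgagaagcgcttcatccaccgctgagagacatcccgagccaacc
Ifit1: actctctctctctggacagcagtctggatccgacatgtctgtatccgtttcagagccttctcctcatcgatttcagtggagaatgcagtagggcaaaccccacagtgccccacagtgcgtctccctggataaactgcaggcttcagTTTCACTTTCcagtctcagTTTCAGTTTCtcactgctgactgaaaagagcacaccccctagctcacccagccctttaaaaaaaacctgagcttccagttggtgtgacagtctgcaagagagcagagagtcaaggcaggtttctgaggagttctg
Gbp2: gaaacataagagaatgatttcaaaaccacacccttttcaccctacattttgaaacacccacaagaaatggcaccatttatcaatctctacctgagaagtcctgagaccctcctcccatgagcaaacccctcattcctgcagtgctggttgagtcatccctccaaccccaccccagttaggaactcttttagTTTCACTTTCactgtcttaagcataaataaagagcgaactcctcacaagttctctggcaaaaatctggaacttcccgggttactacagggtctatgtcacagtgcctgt
The core was found in 3.44% of all 32851 windows of the table. Counted per gene, it was in 323 of the 7590 tested genes that had a promoter (4.26%), which were 80.5% of the genes tested. Of the antiviral effectors with a promoter (21 of 25), 12 held it (57.1%), of the class I presentation genes (17 of 21) 5 held it (29.4%) and of the interferon regulatory and STAT factors (13 of 14) 3 held it (23.1%). Among other groups with a promoter for 80% or more of their tested genes, shares varied. The core was in 3 of 7 promoters of cytotoxic genes (42.9%) and 1 of 4 of SOCS genes (25%). It was in 1 of 4 of Isg15 conjugation (25%), which is Isg15, and in 2 of 16 of iron, redox and arginine metabolism (12.5%). It was in 0 of 17 glycolysis promoters and 0 of 15 of the unfolded protein response, groups whose called members rose too. A part of the core in any of these rises was not tested. Under 80% of the interferon-induced GTPases, sensors, maturation genes and CXC genes had a promoter in the table, so no share is given for them. The interferon gamma core TTCNNNGAA, which reads the same on both strands, was in 8.31% of the tested genes with a promoter and in 7 of 21 antiviral effectors (33.3%). A match describes these letters in these windows and is not a measured binding site.

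The guanylate-binding proteins and immunity-related GTPases, which attack the vacuoles of intracellular pathogens and respond to both kinds of interferon, rose in 16 of 16 cases (median 2.10), and 15 of 16 were called with any 1 of the 4 libraries left out. Gbp2 had 1244 and 1036 CPM in OVA-CpG DC, against 123 and 112 CPM in non-immunized DC (3.28 ± 0.22, adjusted p = 1.38e-07). Iigp1 had 544 and 620 CPM against 70.0 and 72.5 CPM (3.02 ± 0.22, adjusted p = 2.15e-07). Gbp9 had 398 and 361 CPM against 94.8 and 81.2 CPM (2.10 ± 0.19, adjusted p = 9.97e-07). The replicates of each group lay close together and the groups far apart. Members of this family are near copies of each other, so how reads were split among them is uncertain. Of the other genes known to respond to interferon gamma, 10 of 12 tested (14 listed) rose (median 2.71), as many as with any 1 library left out. The serine protease inhibitor Serpina3g, 1 of a cluster of close copies, had 762 and 778 CPM in OVA-CpG DC, against 112 and 119 CPM in non-immunized DC (2.73 ± 0.20, adjusted p = 2.52e-07). Fcgr1, the high-affinity IgG receptor, had 300 and 265 CPM against 20.4 and 11.8 CPM (4.11 ± 0.32, adjusted p = 3.68e-07). Fcgr1 is also a marker of monocytes and macrophages, whose 19 measured markers summed to 4685 and 4430 CPM in OVA-CpG DC and to 2810 and 3180 CPM in non-immunized DC; the part of such cells in its rise was not tested. Batf2, a transcription factor of the AP-1 family, had 104 counts over the OVA-CpG libraries against 3 over the non-immunized ones, a ratio of 48.5 (95% exact interval 16.1 to 239, counting error only).

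**Figure D3:**
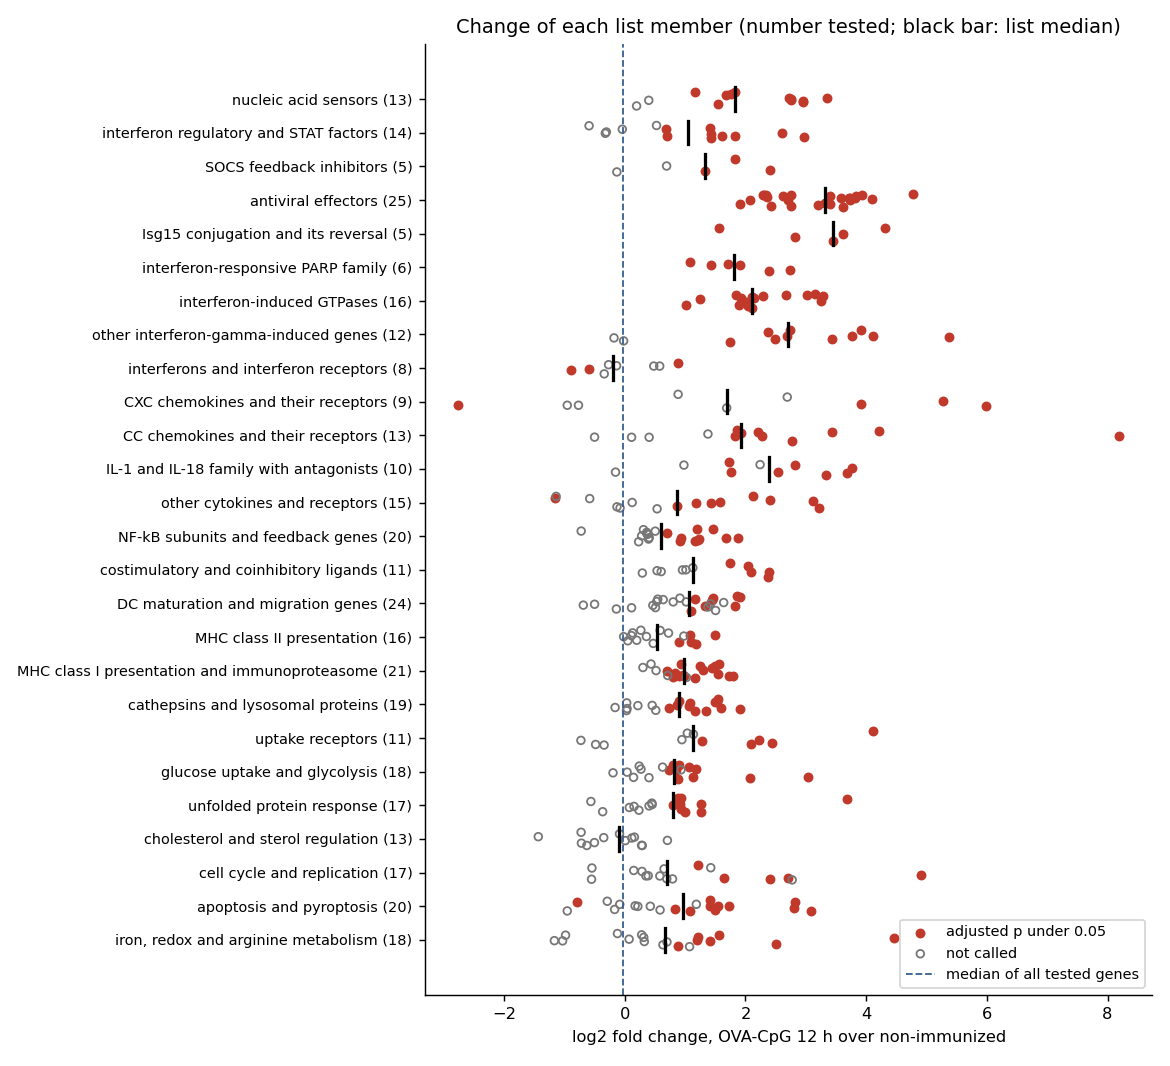
Log2 fold change of every tested member of 26 gene lists, OVA-CpG 12 h over non-immunized. Filled points were called at an adjusted p under 0.05, open points were not, the black bar is the list's median and the dashed line the median of all genes; the antiviral effectors and the interferon-induced GTPases are all filled, and the cholesterol list holds no filled point.

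Chemokines rose as well. Cxcl10, which draws activated T cells and NK cells through CXCR3, had 6997 and 5495 CPM in OVA-CpG DC, against 181 and 141 CPM in non-immunized DC (5.27 ± 0.28, adjusted p = 2.36e-08). Its relative Cxcl9 had 241 and 349 CPM against 24.1 and 14.2 CPM (3.92 ± 0.44, adjusted p = 1.07e-05). Cxcl11, another ligand of the same receptor, had 110 counts over the OVA-CpG libraries against 2, a ratio of 77.0 (95% exact interval 20.8 to 643). The receptor gene Cxcr3 went the other way, with 6.75 and 7.13 CPM in OVA-CpG DC, against 43.0 and 52.0 CPM in non-immunized DC (-2.76 ± 0.42, adjusted p = 0.000262). Of the 9 tested CXC genes (12 listed), these 3 ligands rose and the receptor fell (median 1.69). CXCR3 is made chiefly by T cells and NK cells, whose markers are given with the falls below.

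CC chemokines and their receptors rose in 9 of 13 tested cases (16 listed) and fell in none; the median of 1.93 is the same with Ccl12 at its bound. Ccl2, which recruits monocytes, had 111 and 75.6 CPM in OVA-CpG DC, against 2.92 and 7.09 CPM in non-immunized DC (4.22 ± 0.42, adjusted p = 5.07e-06). Ccl12, a mouse chemokine that signals through the same receptor as Ccl2, had 76 counts over the OVA-CpG libraries and 0 over the non-immunized ones, so it was at least 35.5-fold higher, taking a floor of 3 counts over the group. Ccl4, a chemokine that draws T cells and monocytes, had 146 and 107 CPM against 16.0 and 21.3 CPM (2.77 ± 0.50, adjusted p = 0.00122), and the receptor Ccr1 had 184 and 171 CPM against 17.5 and 15.0 CPM (3.44 ± 0.58, adjusted p = 0.000689). The T cell chemokine Ccl5 had 1144 and 754 CPM against 1534 and 1152 CPM and was not called (-0.50 ± 0.26, adjusted p = 0.235). The count of 9 was 5 by DESeq2, 4 without non-immunized replicate 2 and 5 without OVA-CpG replicate 1.

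In the IL-1 and IL-18 family 7 of 10 tested genes (11 listed) rose and none fell (median 2.39), the antagonists among them. Il1rn, the natural antagonist of the IL-1 receptor, had 122 and 147 CPM in OVA-CpG DC, against 8.75 and 11.8 CPM in non-immunized DC (3.68 ± 0.37, adjusted p = 3.49e-06). Il18bp, which traps IL-18, had 60.8 and 44.2 CPM against 4.38 and 3.15 CPM (3.77 ± 0.39, adjusted p = 4.47e-06). Both antagonists were thus more than 10-fold higher in each OVA-CpG library than in either non-immunized one. Casp4, the caspase that senses cytosolic lipopolysaccharide, had 285 and 220 CPM against 35.7 and 35.5 CPM (2.83 ± 0.32, adjusted p = 1.50e-05), and Casp1, which cuts the IL-1 and IL-18 precursors, had 186 and 133 CPM against 46.7 and 49.7 CPM (1.73 ± 0.28, adjusted p = 0.000513). Il1b itself, named here after its values were seen, had 279 and 269 CPM against 25.5 and 28.4 CPM (3.34 ± 0.60, adjusted p = 0.00118).

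Of the other cytokines and their receptors 8 of 15 tested genes (20 listed) rose and 1 fell (median 0.86). Il15, which sustains NK cells and memory CD8 T cells, had 118 and 81.3 CPM in OVA-CpG DC, against 22.6 and 15.0 CPM in non-immunized DC (2.41 ± 0.34, adjusted p = 0.00014). Csf1, the growth factor of macrophages, had 189 and 175 CPM against 16.0 and 22.9 CPM (3.22 ± 0.34, adjusted p = 6.23e-06). Tnfsf10, the death ligand TRAIL, had 86.1 and 82.7 CPM against 33.6 and 22.9 CPM (1.57 ± 0.26, adjusted p = 0.000614). These 3 were separated in every library. Il6 had 76.0 and 48.5 CPM in OVA-CpG DC, against 8.02 and 6.31 CPM in non-immunized DC (3.12 ± 0.63, adjusted p = 0.00291), a call that was lost without non-immunized replicate 2 (adjusted p = 0.0524) and without OVA-CpG replicate 1 (0.0657). Tnf had 69.2 and 58.5 CPM against 29.9 and 26.8 CPM (1.17 ± 0.32, adjusted p = 0.0207), and was not called by DESeq2 (adjusted p = 0.112) or without the non-immunized replicates 1 (0.106) or 2 (0.165) or OVA-CpG replicate 1 (0.173). Il12b, the subunit of IL-12 that DC make to steer T cells, had 0.844 and 5.70 CPM against 2.92 and 9.46 CPM and was not called (-1.14 ± 1.23, adjusted p = 0.597). Il10 had 5 counts over the OVA-CpG libraries against 3 and was not tested. The receptor Il6ra was the 1 gene called lower, at 73.4 and 75.6 CPM against 150 and 182 CPM (-1.16 ± 0.22, adjusted p = 0.00161). The count of 8 was 4 without non-immunized replicate 2 and 4 without OVA-CpG replicate 1.

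Of 20 NF-kB subunits and feedback genes, 10 rose and none fell (median 0.61), a smaller median than that of the antiviral effectors. Tnfaip2, a target of tumor necrosis factor, had 159 and 201 CPM in OVA-CpG DC, against 38.7 and 58.3 CPM in non-immunized DC (1.88 ± 0.26, adjusted p = 9.89e-05). Bcl3, a nuclear partner of NF-kB, had 130 and 157 CPM against 40.8 and 48.1 CPM (1.68 ± 0.24, adjusted p = 0.000131). The adhesion molecule Icam1 had 257 and 234 CPM against 111 and 108 CPM (1.16 ± 0.20, adjusted p = 0.000858). The subunit Nfkb1, at 218 and 230 CPM against 166 and 171 CPM, was not called (0.40 ± 0.19, adjusted p = 0.183). Without non-immunized replicate 2, or without OVA-CpG replicate 1, 6 of the 20 were called.

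Costimulatory and coinhibitory ligands rose in 5 of 11 tested cases (14 listed) and fell in none (median 1.13). Cd40, through which helper T cells license DC, had 239 and 204 CPM in OVA-CpG DC, against 54.0 and 30.0 CPM in non-immunized DC (2.39 ± 0.29, adjusted p = 2.58e-05). Cd274, the coinhibitory ligand PD-L1, had 262 and 287 CPM against 56.2 and 48.9 CPM (2.38 ± 0.22, adjusted p = 1.34e-06). The ligand Lgals9 had 780 and 604 CPM against 231 and 184 CPM (1.74 ± 0.21, adjusted p = 2.69e-05). Cd86 had 66.7 and 32.8 CPM against 16.0 and 7.88 CPM (2.08 ± 0.40, adjusted p = 0.00199), with an adjusted p of 0.0524 without non-immunized replicate 2 and of 0.109 without OVA-CpG replicate 1. The fifth, Cd200, had 21.9 and 11.4 CPM against 6.56 and 1.58 CPM (2.04 ± 0.53, adjusted p = 0.0167; 0.177 without non-immunized replicate 2 and 0.295 without OVA-CpG replicate 1). Cd80, the partner of Cd86, had 8.44 and 4.28 CPM against 5.84 and 0 CPM and was not called (1.13 ± 0.97, adjusted p = 0.49), a gene read in a few counts only. Without either of the libraries just named 3 of the 11 were called.

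Of 24 genes of DC maturation and migration 8 rose and none fell (median 1.06), and the best-known of them did not pass. Ccr7, which guides DC to lymph nodes, had 303 and 307 CPM in OVA-CpG DC and 310 and 252 CPM in non-immunized DC, so the groups overlapped (0.11 ± 0.21, adjusted p = 0.788). Fscn1, the actin bundler of mature DC, had 257 and 181 CPM in OVA-CpG DC, against 84.6 and 31.5 CPM in non-immunized DC (1.91 ± 0.37, adjusted p = 0.00214), with an adjusted p of 0.0531 without OVA-CpG replicate 1. Cacnb3, a calcium channel subunit and marker of migratory DC, had 214 and 184 CPM against 75.9 and 35.5 CPM (1.83 ± 0.35, adjusted p = 0.00181), and the cytokine inhibitor Socs2 had 139 and 120 CPM against 57.6 and 45.7 CPM (1.32 ± 0.25, adjusted p = 0.00189). Cd83, a maturation marker that stabilizes MHC class II, had 69.2 and 104 CPM against 47.4 and 31.5 CPM (1.09 ± 0.27, adjusted p = 0.0124; 0.173 without non-immunized replicate 2 and 0.129 without OVA-CpG replicate 2). The non-immunized replicates differed by over 2-fold in Fscn1 and Cacnb3. The count of 8 was 3 without non-immunized replicate 2 and 4 without OVA-CpG replicate 1. Markers of migratory DC and Langerhans cells, a list that shares Ccr7, Fscn1, Ccl22 and Socs2 with this one, rose in 4 of 6 tested cases (8 listed), and summed to 863 and 710 CPM in OVA-CpG DC and to 517 and 345 CPM in non-immunized DC; the part of such cells in these rises was not tested. That count of 4 was 2 without non-immunized replicate 2 and 1 without OVA-CpG replicate 1.

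In the class II pathway 5 of 16 tested genes (17 listed) were called higher and none lower (median 0.53), and all 5 are enzymes of the endosome. Ctss, the cathepsin that trims the invariant chain, had 1671 and 1247 CPM in OVA-CpG DC, against 729 and 642 CPM in non-immunized DC (1.09 ± 0.19, adjusted p = 0.00115). H2-Ab1, which encodes a class II beta chain, had 958 and 1041 CPM in OVA-CpG DC and 1079 and 658 CPM in non-immunized DC, overlapping and not called (0.20 ± 0.36, adjusted p = 0.777). The invariant chain Cd74 had 1584 and 1794 CPM against 1293 and 745 CPM and was not called (0.72 ± 0.31, adjusted p = 0.147). The other 4 called were the thiol reductase Ifi30, Ctsh, Ctsl and Lgmn, the last named after its values were seen. The count of 5 was 3 and 1 without the non-immunized replicates 1 and 2 and 2 without OVA-CpG replicate 1. Ifi30 was not called without the non-immunized replicates 1 (adjusted p = 0.0511) or 2 (0.0739) or OVA-CpG replicate 1 (0.0894). Ctsh (0.152 and 0.0767) and Ctsl (0.134 and 0.217) were not called without non-immunized replicate 2 or OVA-CpG replicate 1.

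Of 21 tested genes of class I presentation and the immunoproteasome (22 listed), 16 rose and none fell (median 0.98). H2-T23, the nonclassical class I gene that binds the NK receptor CD94, had 950 and 924 CPM in OVA-CpG DC, against 274 and 268 CPM in non-immunized DC (1.78 ± 0.17, adjusted p = 2.86e-06). Tapbp, the peptide loading chaperone tapasin, had 1136 and 1029 CPM against 375 and 354 CPM (1.57 ± 0.18, adjusted p = 1.62e-05). The immunoproteasome subunit Psmb9 had 1003 and 821 CPM against 352 and 318 CPM (1.44 ± 0.19, adjusted p = 4.90e-05). The classical gene H2-K1 had 3546 and 3020 CPM against 2457 and 2119 CPM and was not called (0.52 ± 0.18, adjusted p = 0.0748). Class I genes are close copies of each other, so their reads may be split uncertainly. Without non-immunized replicate 2, 10 of the 21 were called.

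Of the cathepsins and lysosomal proteins 12 of 19 tested genes (20 listed) rose (median 0.89), with Ctsc, which activates granule proteases, at 469 and 406 CPM in OVA-CpG DC, against 128 and 162 CPM in non-immunized DC (1.59 ± 0.19, adjusted p = 1.96e-05). Grn, the lysosomal protein progranulin, had 395 and 354 CPM against 121 and 136 CPM (1.54 ± 0.18, adjusted p = 2.36e-05). Of the 11 tested uptake receptors (20 listed) 5 rose and none fell (median 1.14). Among the 9 not tested, the lectin Cd209a had 1 count over the OVA-CpG libraries against 17 over the non-immunized ones, a ratio of 0.0823 (95% exact interval 0.00197 to 0.525), and the scavenger receptor Marco had 1 against 14, a ratio of 0.1 (0.00236 to 0.657). Msr1, a scavenger receptor of macrophages, had 96.2 and 88.4 CPM in OVA-CpG DC, against 18.2 and 25.2 CPM in non-immunized DC (2.09 ± 0.32, adjusted p = 0.000322). The other 4 were the Fc receptors Fcgr1, Fcgr3 and Fcgr4 and the lectin Clec4a2; Fcgr3 was not called by DESeq2 (adjusted p = 0.168) or without the non-immunized replicates 1 (0.114) or 2 (0.154) or OVA-CpG replicate 1 (0.23). Fcgr4 was not called without non-immunized replicate 2 (0.111) or OVA-CpG replicate 1 (0.0804), and Clec4a2 neither by DESeq2 (0.127) nor with any 1 of the 4 libraries left out (0.0702 to 0.267). The lysosomal count of 12 was 6, 5 and 4 without the non-immunized replicates 1 and 2 and OVA-CpG replicate 1, and the receptor count of 5 was 3, 2 and 2 without the same libraries and 3 by DESeq2. The summed markers of monocytes and macrophages, given above, were higher in the same libraries, 7 of 16 tested called higher, and their part was not tested.

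Genes of cytotoxic cells went both ways. Gzmb, the apoptosis-inducing protease granzyme B, had 111 and 151 CPM in OVA-CpG DC, against 2.19 and 0 CPM in non-immunized DC, which is 237 counts against 3, a ratio of 111 (95% exact interval 37.4 to 540). Gzma had 291 and 167 CPM against 32.1 and 11.0 CPM (3.40 ± 0.47, adjusted p = 9.98e-05). Nkg7, a granule protein of NK and T cells, was lower at 222 and 138 CPM against 521 and 457 CPM (-1.43 ± 0.29, adjusted p = 0.00317), with an adjusted p of 0.0609 without OVA-CpG replicate 2. Perforin (Prf1) had 8.44 and 7.13 CPM against 19.0 and 14.2 CPM and was not called (-1.06 ± 0.49, adjusted p = 0.176). Of the 8 tested cytotoxic genes (12 listed), 5 rose (Gzma, Gzmb, Tnfsf10, the granule proteoglycan Srgn and the granzyme B inhibitor Serpinb9) and 2 fell (Nkg7 and the cathepsin Ctsw). NK cell markers, 12 measured with Klra8 at 0 in all 4 libraries, summed to 904 and 666 CPM in OVA-CpG DC and to 1043 and 903 CPM in non-immunized DC, with 2 of 8 tested called higher (Gzma and the activating receptor Klrk1) and 3 lower (Klrd1, Nkg7 and the factor Eomes, the last named after its values were seen; 1 without OVA-CpG replicate 2). The cell in which Gzmb and Gzma were made was not tested.

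Glucose uptake and glycolysis genes rose in 10 of 18 tested cases (20 listed; median 0.82), with the hexokinase Hk3 at 97.1 and 104 CPM in OVA-CpG DC, against 12.4 and 11.8 CPM in non-immunized DC (3.03 ± 0.48, adjusted p = 0.000405). Genes of the unfolded protein response, which answers protein load in the endoplasmic reticulum, rose in 9 of 17 tested cases (18 listed; median 0.80). The stress factor Atf3 had 101 and 87.0 CPM in OVA-CpG DC, against 8.02 and 6.31 CPM in non-immunized DC (3.69 ± 0.37, adjusted p = 3.49e-06), and the chaperone Hspa5 had 959 and 1011 CPM against 387 and 432 CPM (1.26 ± 0.17, adjusted p = 8.97e-05). The glycolysis count of 10 was 4, 3 and 3 without the non-immunized replicates 1 and 2 and OVA-CpG replicate 1 and 6 without OVA-CpG replicate 2, and the unfolded protein count of 9 was 4, 5 and 5 without non-immunized replicates 1 and 2 and OVA-CpG replicate 2. In cholesterol synthesis 0 of 13 tested genes (18 listed) passed by edgeR or by DESeq2, and 1 had an unadjusted p under 0.05 (Dhcr7, an enzyme of the last step).

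Among genes of iron, redox and arginine metabolism 7 of 18 tested (20 listed) rose (median 0.67). Irg1, which makes the antimicrobial itaconate, had 111 and 131 CPM in OVA-CpG DC, against 4.38 and 6.31 CPM in non-immunized DC (4.46 ± 0.55, adjusted p = 3.20e-05). Gch1, the first enzyme of tetrahydrobiopterin synthesis, had 165 and 134 CPM against 23.3 and 29.2 CPM (2.51 ± 0.25, adjusted p = 2.88e-06). Genes of apoptosis and pyroptosis rose in 10 of 20 cases (median 0.96), with Daxx, a nuclear adaptor of death signals, at 742 and 559 CPM against 95.6 and 90.6 CPM (2.80 ± 0.22, adjusted p = 3.68e-07). The 1 that fell was the survival gene Bcl2, at 121 and 133 CPM in OVA-CpG DC and 215 and 221 CPM in non-immunized DC (-0.79 ± 0.20, adjusted p = 0.012), named after its values were seen and not called with any 1 of the 4 libraries left out. Of 16 tested immediate early genes (18 listed), 4 rose and 1 fell (median 0.36). Among those that rose, the factor Jun had 108 and 89.8 CPM in OVA-CpG DC, against 16.0 and 9.46 CPM in non-immunized DC (2.94 ± 0.32, adjusted p = 9.14e-06). The metabolic count of 7 was 4 without either non-immunized library, and again without OVA-CpG replicate 1.

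Of 17 tested cell cycle genes (20 listed) 5 rose and none fell (median 0.70). Ccnb2, a mitotic cyclin, had 52.3 and 45.6 CPM in OVA-CpG DC, against 1.46 and 1.58 CPM in non-immunized DC (4.90 ± 0.50, adjusted p = 4.29e-06). Cdkn3, a phosphatase of cyclin-dependent kinases, had 41 counts over the OVA-CpG libraries and 0 over the non-immunized ones and was at least 19.1-fold higher at the same floor of 3 counts. Mki67, the common proliferation marker, had 21.1 and 38.5 CPM against 11.7 and 6.31 CPM (1.65 ± 0.49, adjusted p = 0.0337), and was not called by DESeq2 (0.0869) or without the non-immunized replicates 1 (0.0676) or 2 (0.26) or OVA-CpG replicate 2 (0.223). The count of 5 was 2 by DESeq2 and 1 without any 1 of those 3 libraries.

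Among the largest rises of all tested genes with a mean of 10 CPM or more were products of neutrophils and acute inflammation. Saa3, an acute phase protein, had 346 and 386 CPM in OVA-CpG DC, against 14.6 and 10.2 CPM in non-immunized DC (4.85 ± 0.29, adjusted p = 4.69e-08). S100a8, a calcium-binding protein that neutrophils hold in bulk, had 988 and 1282 CPM against 52.5 and 30.0 CPM (4.77 ± 0.78, adjusted p = 0.000529). Lcn2, which binds bacterial siderophores, had 387 and 374 CPM against 19.7 and 10.2 CPM (4.64 ± 0.59, adjusted p = 4.52e-05), and the granule peptide gene Camp had 93.7 and 68.4 CPM against 8.02 and 3.15 CPM (3.83 ± 0.60, adjusted p = 0.000379). Neutrophil markers rose in 7 of 8 tested cases (11 listed; median 3.78), and their sum was 2585 and 2593 CPM in OVA-CpG DC and 174 and 126 CPM in non-immunized DC. No library had all of these genes at 0, and whether the transcripts came from neutrophils in the sort or from DC was not tested. Slfn4, a Schlafen gene of myeloid cells, had 336 and 338 CPM in OVA-CpG DC, against 16.8 and 10.2 CPM in non-immunized DC (4.61 ± 0.36, adjusted p = 3.61e-07).

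**Figure D4:**
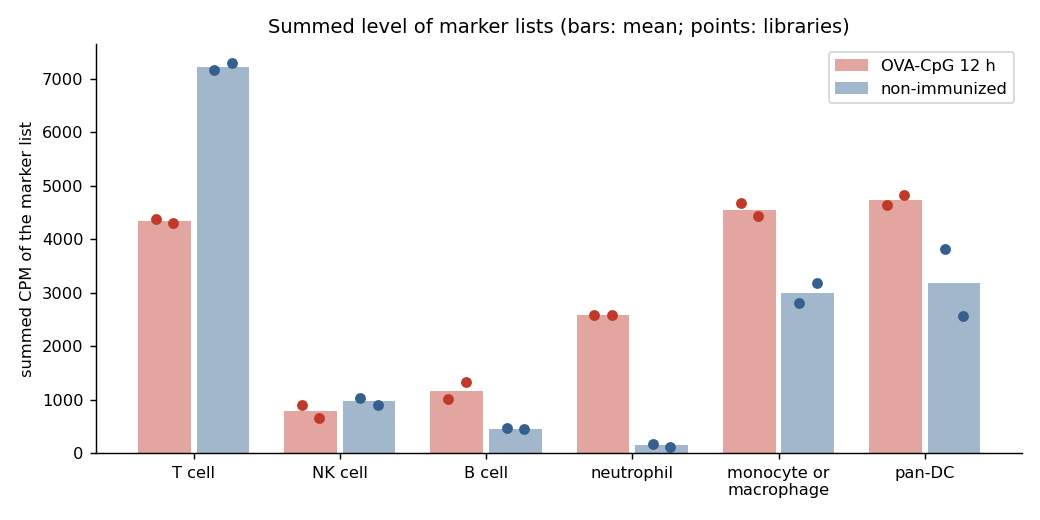
Summed CPM of 6 marker lists in OVA-CpG 12 h (red) and non-immunized (blue) libraries; bars are means and points libraries. T cell markers sum to less and neutrophil, B cell and monocyte or macrophage markers to more in both OVA-CpG libraries than in either non-immunized one, and NK cell sums overlap. Pan-DC marker sums are higher in both OVA-CpG libraries, and much of each comes from the class II pathway genes H2-Ab1 and Cd74.

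Genes of T and NK cells were among those that fell. Of 20 tested T cell markers (21 listed) 12 fell and none rose, with a median log2 fold change of -0.70, beside 4.04% of all genes called lower. Lef1, a transcription factor of naive T cells, had 48.9 and 38.5 CPM in OVA-CpG DC, against 178 and 183 CPM in non-immunized DC (-2.02 ± 0.31, adjusted p = 0.000291). Lck, the kinase of the T cell receptor, had 294 and 211 CPM against 527 and 623 CPM (-1.18 ± 0.20, adjusted p = 0.000633), and Tcf7, the partner of Lef1, had 464 and 393 CPM against 996 and 1030 CPM (-1.24 ± 0.21, adjusted p = 0.000752). The receptor chain Cd3e, at 171 and 181 CPM against 239 and 222 CPM, was not called (-0.40 ± 0.20, adjusted p = 0.222). The markers summed to 4388 and 4313 CPM in OVA-CpG DC and to 7172 and 7285 CPM in non-immunized DC. Without OVA-CpG replicate 1, 7 of the 20 were called.

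Klrd1, the NK receptor chain CD94, had 27.0 and 17.1 CPM in OVA-CpG DC, against 138 and 110 CPM in non-immunized DC (-2.44 ± 0.30, adjusted p = 3.61e-05). Ccr9, the gut-homing receptor also made by plasmacytoid DC and T cells, had 126 and 81.3 CPM against 484 and 437 CPM (-2.13 ± 0.27, adjusted p = 4.62e-05). Ctla2a, an inhibitor of cathepsin L, had 8.44 and 4.28 CPM against 64.2 and 36.3 CPM (-2.87 ± 0.44, adjusted p = 0.000291). In these 3 genes both OVA-CpG libraries lay below both non-immunized ones by over 2-fold. Crtam, a receptor of activated NK and CD8 T cells, had 3 counts over the OVA-CpG libraries against 64 over the non-immunized ones, a ratio of 0.0656 (95% exact interval 0.0132 to 0.201). Tmevpg1, a noncoding RNA beside Ifng, had 3 counts against 66, a ratio of 0.0636 (0.0128 to 0.194). Slc26a11, an anion transporter, had 1.69 and 7.13 CPM against 38.7 and 34.7 CPM (-3.23 ± 0.56, adjusted p = 0.000922). Art4, an ADP-ribosyltransferase, had 3.38 and 2.85 CPM in OVA-CpG DC, against 27.7 and 35.5 CPM in non-immunized DC (-3.27 ± 0.57, adjusted p = 0.000913). The other large falls were those of Ppargc1b, a coactivator of mitochondrial genes, the heparan sulfate proteoglycan Sdc1, Parp16, the phosphatase Ppm1j and N4bp2, with log2 fold changes of -2.99, -2.82, -2.58, -2.45 and -2.43. Their calls were lost with 1 library or more left out: Ppargc1b without non-immunized replicate 2 (adjusted p = 0.0564), N4bp2 without OVA-CpG replicate 1 (0.122), Sdc1 and Ppm1j without any 1 of the 4, and Parp16 without non-immunized replicates 1 and 2 and OVA-CpG replicate 2 (0.0567 to 0.106). The T cell sums given above were lower in the same libraries, and their part in these falls was not tested.

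B cell markers rose in 5 of 9 tested cases (12 listed; median 2.28) and summed to 1010 and 1329 CPM in OVA-CpG DC and to 473 and 454 CPM in non-immunized DC. Ms4a1, the surface protein CD20, had 91.1 and 188 CPM in OVA-CpG DC, against 19.0 and 17.3 CPM in non-immunized DC (2.89 ± 0.63, adjusted p = 0.00555; 0.0589, 0.0719 and 0.064 without non-immunized replicates 1 and 2 and OVA-CpG replicate 2). The 2 OVA-CpG libraries differed by about 2-fold in it. The count of 5 was 2 by DESeq2, 0 and 1 without the non-immunized replicates 1 and 2, and 1 without OVA-CpG replicate 2.

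Markers of conventional DC types were set out in the same way. For type 1, 5 of 12 tested (13 listed) rose (median 1.12), among them Irf8, the factor that type 1 and plasmacytoid DC need, at 264 and 362 CPM in OVA-CpG DC, against 93.4 and 82.0 CPM in non-immunized DC (1.82 ± 0.35, adjusted p = 0.00186), and Cd24a at 81.0 and 71.3 CPM against 20.4 and 15.8 CPM (2.07 ± 0.37, adjusted p = 0.00128). The type 1 list shares Irf8 with the interferon factors and the DC markers above, and Tlr3 and Ifi205 with the sensors, so these calls are counted there too. The chemokine receptor Xcr1, which defines that type, had 2 counts over the OVA-CpG libraries and 5 over the non-immunized ones. For type 2, 3 of 7 tested (12 listed) rose (median 1.29), with the integrin Itgam, which macrophages and neutrophils also carry, at 197 and 151 CPM against 52.5 and 52.8 CPM (1.73 ± 0.30, adjusted p = 0.000813). Of 9 tested markers of plasmacytoid DC (12 listed), 4 rose and 1 fell (median 0.51). Those that rose include Bst2 and Irf7, counted with the interferon genes above, and the 1 that fell was Ccr9. Siglech had 0 counts, as given above. Spib, a factor of plasmacytoid DC and B cells, had 96.2 and 148 CPM against 24.1 and 26.8 CPM (2.23 ± 0.37, adjusted p = 0.000542). The type 1 count of 5 was 3 without non-immunized replicate 2, and the type 2 count of 3 was 1 without non-immunized replicate 1 or 2 or OVA-CpG replicate 2.

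The OVA-CpG 12 h libraries were then set directly against CpG-only particles at the same time, which share no control library with them in this test. Of 9428 genes 232 (2.46%) were called, 71 higher (0.753%) and 161 lower (1.71%) with OVA. Interferon-induced GTPases were higher in 12 of 16 cases and lower in none (median log2 difference 1.00, beside 0.01 over all genes). Iigp1 had 544 and 620 CPM after OVA-CpG, against 239 and 281 CPM after CpG only (1.16 ± 0.20, adjusted p = 0.00548), and Gbp2 had 1244 and 1036 CPM against 617 and 561 CPM (0.95 ± 0.20, adjusted p = 0.0182). Antiviral effectors were higher in 8 of 25 cases, with Cmpk2 at 749 and 627 CPM against 364 and 275 CPM (1.10 ± 0.19, adjusted p = 0.00562), and Cxcl10 had 6997 and 5495 CPM against 2926 and 2855 CPM (1.11 ± 0.23, adjusted p = 0.0173). Isg15 (0.94 ± 0.25, adjusted p = 0.0587), Gzmb (1.57 ± 0.43, adjusted p = 0.0685) and Il1rn (0.72 ± 0.30, adjusted p = 0.307) were not called. These calls depended on single libraries. Without CpG-only replicate 1, 8 GTPases and 2 effectors were called, without CpG-only replicate 2 none of either, without OVA-CpG replicate 1 the counts were 3 and 0, and without OVA-CpG replicate 2 they were 1 and 1. Over all genes the count was 168 without CpG-only replicate 1, 37 without CpG-only replicate 2, 51 without OVA-CpG replicate 1 and 24 without OVA-CpG replicate 2.

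Maturation genes went the other way, lower after OVA-CpG than after CpG only in 21 of 24 cases and higher in none (median log2 difference -1.61). Ccr7 had 303 and 307 CPM after OVA-CpG at 12 h, against 778 and 932 CPM after CpG only (-1.49 ± 0.22, adjusted p = 0.0018). Fscn1 had 257 and 181 CPM against 965 and 1067 CPM (-2.21 ± 0.34, adjusted p = 0.00284), and Socs2 had 139 and 120 CPM against 367 and 361 CPM (-1.49 ± 0.23, adjusted p = 0.00284). Each CpG-only library lay above both OVA-CpG libraries in these 3. Without OVA-CpG replicate 2 the adjusted p was 0.055 for Ccr7, 0.0926 for Fscn1 and 0.079 for Socs2, and the count of 21 was 4; it was 9 without CpG-only replicate 2 and 12 without OVA-CpG replicate 1. Neutrophil markers were also lower after OVA-CpG, in 5 of 8 tested cases, and summed to 2585 and 2593 CPM after OVA-CpG and to 14621 and 18606 CPM after CpG only. Camp, with 93.7 and 68.4 CPM against 788 and 1081 CPM (-3.50 ± 0.41, adjusted p = 0.00075), was called with any 1 library left out and by DESeq2. Pan-DC markers were lower in 3 of 9 tested cases (Flt3, Batf3 and Cst3; median -1.26) and summed to 4632 and 4819 CPM after OVA-CpG and to 7925 and 13464 CPM after CpG only; the count was 6 and 1 without the CpG-only replicates 1 and 2 and 1 without OVA-CpG replicate 2. Xcr1, the receptor of type 1 DC, had 0.844 and 1.43 CPM after OVA-CpG, against 16.2 and 41.5 CPM after CpG only. Migratory DC markers were lower in 5 of 6 tested cases, summing to 863 and 710 CPM after OVA-CpG and to 2524 and 2726 CPM after CpG only, and T cell markers summed to 4388 and 4313 CPM against 3746 and 2523 CPM. The neutrophil count of 5 was 3 without either CpG-only library or OVA-CpG replicate 1 and 2 without OVA-CpG replicate 2, and the migratory DC count of 5 was 3 without any 1 of the first 3 of these libraries and 0 without OVA-CpG replicate 2. The part of these cell types in the differences was not tested.

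**Figure D5:**
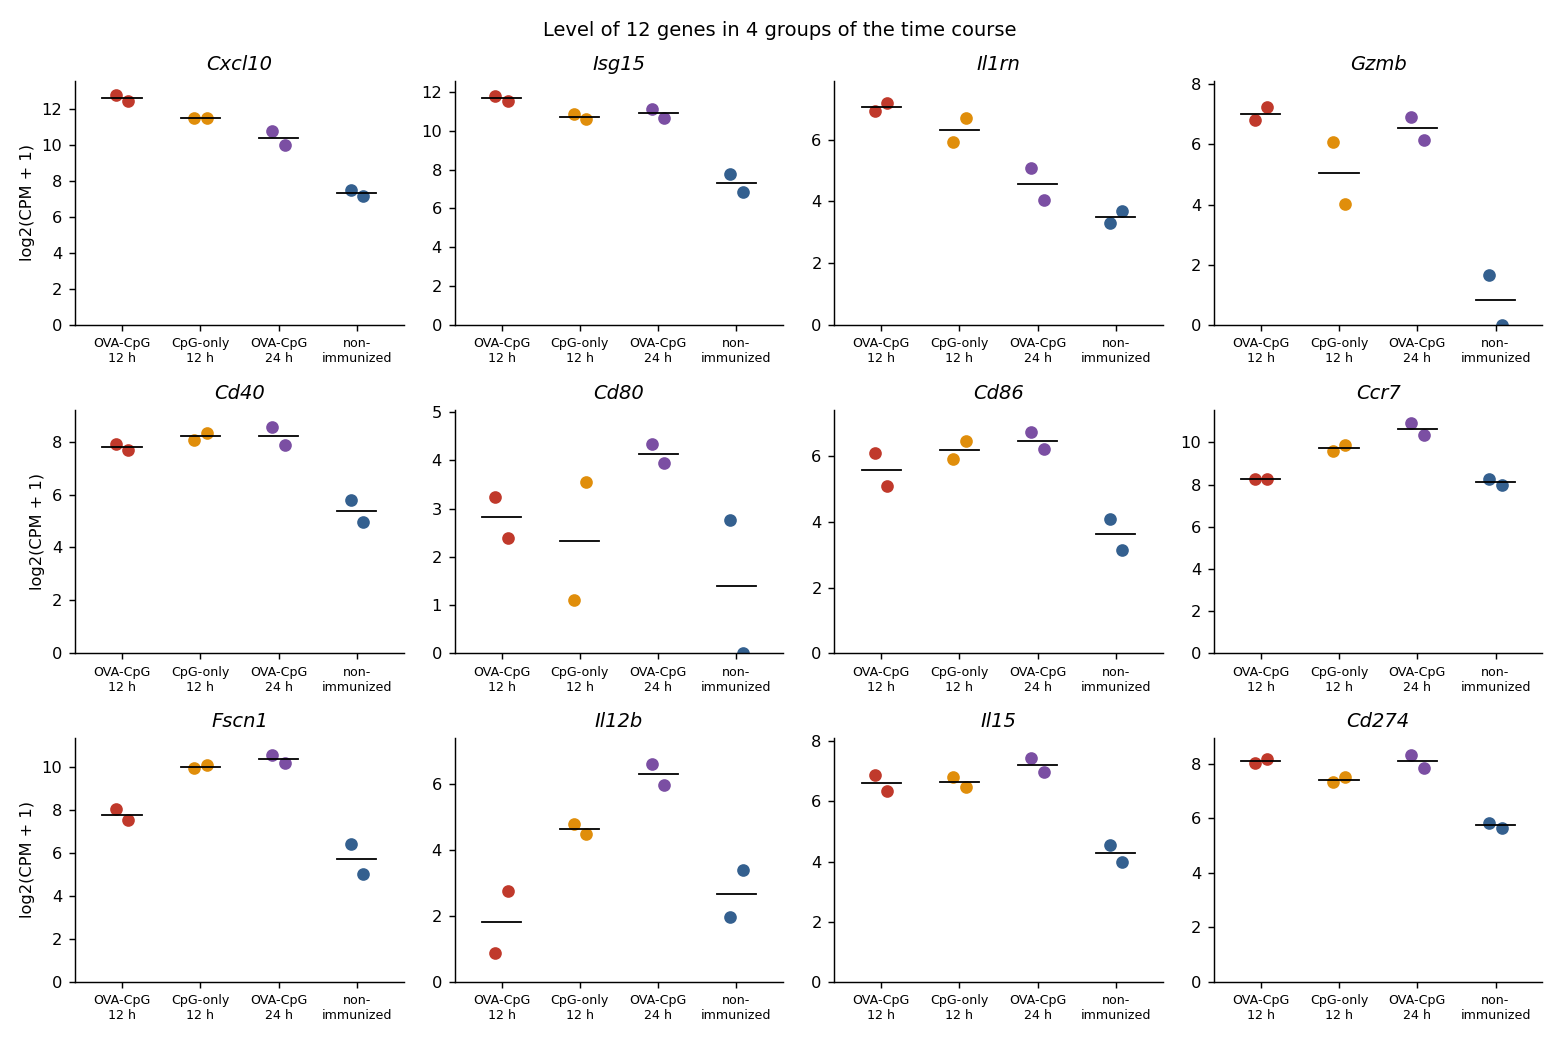
Level of 12 genes as log2(CPM + 1) in OVA-CpG 12 h, CpG-only 12 h, OVA-CpG 24 h and non-immunized libraries of the time course; points are libraries and lines group means. Ccr7 and Fscn1 lie lower in OVA-CpG 12 h than in CpG-only 12 h and OVA-CpG 24 h, and Cxcl10 lies highest in OVA-CpG 12 h.

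Against the same particles at 24 h, 839 of 9428 genes (8.9%) were called, 365 higher (3.87%) and 474 lower (5.03%) at 12 h. Cxcl10 had 6997 and 5495 CPM at 12 h, against 1750 and 1005 CPM at 24 h (2.18 ± 0.24, adjusted p = 3.61e-05), and Il1rn had 122 and 147 CPM against 32.9 and 15.5 CPM (2.48 ± 0.35, adjusted p = 0.000308). Saa3 had 346 and 386 CPM against 8.24 and 5.97 CPM (5.67 ± 0.34, adjusted p = 1.78e-07). Ccl2 had 111 and 75.6 CPM at 12 h and 0 counts in both libraries at 24 h. The interferon-induced GTPases gave 0 calls of 16 by edgeR and by DESeq2, with 4 at an unadjusted p under 0.05 (median log2 difference 0.20), and Gzmb, at 111 and 151 CPM against 121 and 70.4 CPM, was not called either (0.44 ± 0.39, adjusted p = 0.57). Maturation genes were lower at 12 h in 23 of 24 cases (median -2.25). Ccr7 had 303 and 307 CPM at 12 h, against 1925 and 1302 CPM at 24 h (-2.41 ± 0.22, adjusted p = 7.70e-06), and Fscn1 had 257 and 181 CPM against 1506 and 1165 CPM (-2.60 ± 0.35, adjusted p = 0.000185). Il12b had 0.844 and 5.70 CPM against 97.5 and 62.1 CPM (-4.81 ± 0.89, adjusted p = 0.00235), with an adjusted p of 0.0841 without OVA-CpG 12 h replicate 1. Cxcl10, Il1rn, Saa3, Ccr7 and Fscn1 were called with any 1 library left out, and over all genes the count was 369 without OVA-CpG 12 h replicate 1, 420 without OVA-CpG 12 h replicate 2, 293 without OVA-CpG 24 h replicate 1 and 563 without OVA-CpG 24 h replicate 2.

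Markers of monocytes and macrophages were higher at 12 h than at 24 h in 14 of 16 tested cases and lower in 1 (median log2 difference 2.64), and summed to 4685 and 4430 CPM at 12 h and to 1325 and 1342 CPM at 24 h. Vcan, a matrix proteoglycan of monocytes, had 78.5 and 114 CPM at 12 h, against 6.86 and 7.16 CPM at 24 h (3.73 ± 0.60, adjusted p = 0.000839), and the complement gene C1qb had 41.4 and 25.7 CPM against 4.12 and 3.58 CPM (3.12 ± 0.53, adjusted p = 0.0013). Without OVA-CpG 24 h replicate 1, 9 of the 16 were called higher. The 1 called lower was Ly6c1, a surface protein with a close copy in Ly6c2. Pan-DC markers were lower at 12 h in 4 of 9 tested cases (Flt3, Dpp4, Batf3 and Cst3; 2 of 9 without OVA-CpG 12 h replicate 2 or OVA-CpG 24 h replicate 1), and summed to 4632 and 4819 CPM at 12 h and to 8417 and 6590 CPM at 24 h. The migratory DC markers, 5 of 6 lower at 12 h (3 without OVA-CpG 12 h replicate 2 or OVA-CpG 24 h replicate 1), summed to 863 and 710 CPM at 12 h and to 4561 and 3266 CPM at 24 h, and the neutrophil markers of the 24 h libraries summed to 430 and 2534 CPM, unlike each other. The part of these cells in the differences between the times was not tested.

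In the separate experiment at 20 h, with libraries of 367209 to 2052904 counts, 1431 of 9159 genes (15.6%) were called, 878 higher (9.59%) and 553 lower (6.04%) in OVA-CpG DC. Of 25 antiviral effectors 24 were higher and none lower at 20 h (median 2.65), and of 14 tested GTPases 12 were higher (median 2.23). Isg15 had 826 to 1567 CPM (median 1287) in OVA-CpG DC, against 31.3 to 104 CPM (median 83.5) in non-immunized DC (4.08 ± 0.46, adjusted p = 1.38e-05). Cxcl10 had 99.0 to 531 CPM (median 332) against 15.4 to 151 CPM (median 20.6), and the groups overlapped in 1 non-immunized library (3.23 ± 0.60, adjusted p = 0.000904). Il1rn, with 18.5 to 62.1 CPM (median 45.2) in OVA-CpG DC and 8.41 to 116 CPM (median 15.9) in non-immunized DC, was not called (0.82 ± 0.51, adjusted p = 0.292). The 116 CPM was that of non-immunized replicate 3, the library with the fewest counts (367209), and the other non-immunized libraries had 8.41 to 20.6 CPM. Gzmb had 1.39 to 35.1 CPM (median 11.2) in OVA-CpG DC, and 1 count in all over the 5 non-immunized libraries (adjusted p = 0.000763). Lck had means of 13.5 ± 6.74 CPM in OVA-CpG DC and 14.2 ± 4.20 CPM in non-immunized DC (SD, n = 5 each) and was not called (adjusted p = 0.919, edgeR).

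Of the genes tested in both experiments (8324), 748 were called higher at 12 h and 829 at 20 h, and 295 were higher in both, which is 39.4% of the 12 h genes and 35.6% of the 20 h genes, where 9.96% of all were higher at 20 h. Of the 748 genes higher at 12 h, 31 (4.14%) were called lower at 20 h, where 6.09% of all were lower. Of 288 genes lower at 12 h, 56 (19.4%) were lower at 20 h too, beside the same 6.09% of all. These 56 are 11% of the 507 lower at 20 h. Another 13 of the 288 (4.51%) were higher at 20 h, beside 9.96% of all. Monocyte and macrophage markers, of which 7 of 16 tested rose at 12 h, fell in 10 of 12 tested cases at 20 h. The experiments differ in time, in their libraries and in how far T cell genes were read, so the differences between them cannot be told apart from the difference in time.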

How the data were processed

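RNA was sequenced from sorted lymph node DC, and reads were handled with bcl2fastq, HISAT 0.1.6 and HOMER on the mm9 build, per the submitters' processing notes. The authors deposited raw exon counts per gene (24421 genes in the time course, 24411 in the 20 h experiment), beside log2 fold changes and adjusted p-values of their own, per the file headers. Columns of no sample of this series (4) were not used. Libraries of the time course held 612017 to 1329203 counts, which limits what can be detected in genes read in few counts.

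Counts were tested with edgeR 4.0.16 (R 4.3.3; quasi-likelihood test, TMM scaling, filterByExpr by group, Benjamini-Hochberg adjustment over all genes tested, threshold 0.05), with group as the only term, in 1 fit over the 10 time-course libraries and 1 over the 15 DC libraries of the 20 h experiment, which include BSA-CpG libraries. The SE is the log2 fold change divided by the square root of F. Ratios of few counts carry exact intervals that cover counting error only. The edgeR and DESeq2 fits and tests were checked on counts simulated with the same spread for every gene. The list counts and the exact ratios were not part of that check. Alternatives were DESeq2 1.42.0, its size factors, other filters, a replicate block, a fit on the compared libraries alone and leaving out each library. The authors' deposited table calls 798 genes, and 793 of those were also called by edgeR here.

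The members, gene lists and tests were chosen with earlier results of these data known. Genes named were Cxcl10, Isg15, Il1rn and Gzmb, the 12 largest rises and 12 largest falls among called genes of at least 10 CPM whose groups did not overlap, up to 4 called members of each list, a fixed set of DC genes, and members of lists that were not called. Ifit1, Il1b, Lgmn, Bcl2, Eomes, Serpinb9, Ctsw, Cd209a, Marco, Flt3, Batf3, Cst3, Dpp4, Dhcr7 and, against CpG-only DC, Xcr1 were named after their values were seen. Figures were drawn with matplotlib 3.10.9. Results on some items are not reported here.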

Additional observations from a re-analysis of the deposited data

Results flagged for a closer look

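Some genes differed between 12 h and 24 h after OVA-CpG particles by a direct test of the difference. The log2 difference, 12 h minus 24 h, was 2.18 for Cxcl10 and 2.48 for Il1rn, and it was -2.41 for Ccr7, -2.60 for Fscn1 and -4.81 for Il12b.

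In the 20 h experiment non-immunized replicate 3 lay apart from the other 4 non-immunized libraries, at 151.4 CPM for Cxcl10 and 116.2 CPM for Il1rn. For Gzmb another library, non-immunized replicate 5, lay apart, at 0.61 CPM against 0 in the other 4. Chance alone can set a library apart in this way, and how often it does so was not tested. The Gzmb value is 1 count.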

How the results depend on the processing

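Of 149 called genes that were followed, 108 kept their call under every alternative and 41 lost it under at least 1, and none changed direction. Genes called in OVA-CpG 12 h against non-immunized DC numbered 794 by DESeq2, of which 84.6% were higher (70.3% by edgeR), and 529 to 831 with 1 library left out. Against CpG-only 12 h they numbered 469 with no filter on low counts, 413 in a fit on the compared libraries alone and 24 to 168 with 1 library left out. Against OVA-CpG 24 h they numbered 519 by DESeq2 and 293 to 563 with 1 library left out, and at 20 h 994 to 1415. Deviations of same-numbered replicates had correlations of -0.0453 to 0.148 between groups. With 2 libraries a group these cannot show whether replicate numbers pair the samples. With a replicate block the counts were 1326 (non-immunized), 255 (CpG-only 12 h), 892 (OVA-CpG 24 h) and 1270 (20 h). In fits with 1 library left out, the lone library is assumed to vary like the other groups. The cause of these shifts was not tested. Of 47 list counts, 5 moved by over 1.5 times under DESeq2 (CC chemokines, cell cycle, B cell markers, uptake receptors and the immediate early genes called lower) and 11 to 23 with 1 library left out. At 612017 to 1329203 counts a library, changes in Tlr9, Ifnb1, Ifng and Il10 between OVA-CpG 12 h and non-immunized DC were not detectable.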
